A study of Zea mays with 9 samples.

Results

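The genes described here are 93 maize genes whose transcript level in the root apex was more than 2-fold higher after nitrate than in nitrogen-deprived roots, while their level after ammonium stayed near that of the deprived roots. They were chosen by the measured values themselves, from 15925 Zm00001d gene models that were above 0 in all 3 conditions and reached at least 5 RPKM (a read count scaled to transcript length and to the size of the library) in at least one of them. A gene was a member when the log2 ratio of its RPKM after nitrate to its RPKM in -N (the nitrate ratio) was above 1 and the log2 ratio of ammonium to -N (the ammonium ratio) lay within 0.58 on either side of 0, a limit of about 1.5-fold. A further 2 genes are left out by the rule and are not described. The table as a whole lists 43484 Zm00001d genes among 45260 identifiers.

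The plants were 3-day-old seedlings of the inbred line B73, germinated in the dark and first held without nitrogen, which all groups share. They then spent 24 h in a solution with no nitrogen source (-N, the control), with 1 mM KNO3 (nitrate) or with 1 mM NH4Cl (ammonium), so that the salts differed in the accompanying ion as well as in the nitrogen form. Each condition had 3 replicates, 9 libraries in all, each pooled from 10 to 15 seedlings by the record of the series, while the methods of the study give a larger pool. The tip of the root that was sampled contains meristem, elongating cells and root cap together, and in such a mixture a higher level per cell and a larger share of the cells that carry a transcript cannot be told apart.

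Nitrate is both the nutrient from which plants build amino acids and a signal that acts on transcription before it is assimilated. In Arabidopsis, NIN-like transcription factors bind nitrate-responsive promoters within minutes and start a primary response that covers nitrate uptake, its reduction to nitrite and ammonium, the supply of reductant from the oxidative pentose phosphate pathway, and a set of regulators. Ammonium enters metabolism downstream of the reduction steps. The study presumes that genes changed by both forms respond to ammonium or a product of its assimilation. For genes specific to nitrate it names nitrate itself, nitrite or nitric oxide. Genes that are higher after nitrate and not after ammonium are those that a comparison of both forms singles out. What they respond to was not tested here.

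The table holds one value per gene and condition, estimated by the authors over the 3 replicates. It holds no replicate values, so the differences below were not set against the spread between the 3 replicates and no p-value was computed, and it does not give the reads behind a value. Every statement gives the size of a difference in the authors' values. Both ratios have the -N value as denominator, so an error in that value moves both the same way. The nitrate ratio was above 1 for 387 eligible genes, which is 2.43% of them. Of these 387 genes, 280 had an ammonium ratio above 0.58, 14 had one below -0.58, and the other 93, or 0.584% of the eligible genes, are the members. An ammonium ratio within 0.58 was common, and 73.7% of all eligible genes had one. Since the rule used both contrasts, nothing is read from these shares.

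None of the 93 identifiers is paired with a gene name or description in the annotation used here, and no sequence is shown for the same reason. The members are therefore described by their levels and by the order of their values, and no role is given to any of them. Markers of the root apex could not be looked up either, so the tissue label was not checked against the data.

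In absolute terms the members were mostly genes of low level. After nitrate their RPKM ran from 5.14 to 445, with a median of 10.1 and quartiles of 6.70 and 19.0. In -N the median was 4.05 (range 0.0839 to 160.1), and after ammonium it was 4.33 (range 0.0888 to 236). For comparison, the median of all eligible genes was 18.0 RPKM after nitrate against 17.7 in -N and 18.8 after ammonium. The rule requires a value above 0 everywhere, and 5 of the 93 were under 1 RPKM in -N. After nitrate 47 members were at 10 RPKM or more, 7 at 50 or more and 3 at 100 or more. Summed over the 93 genes, the RPKM was 2206 after nitrate, 882 in -N and 1121 after ammonium, which is 0.270%, 0.108% and 0.134% of the RPKM of all Zm00001d genes. The 3 most abundant members made up 37.0% of the members' sum after nitrate.

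**Figure D1:**
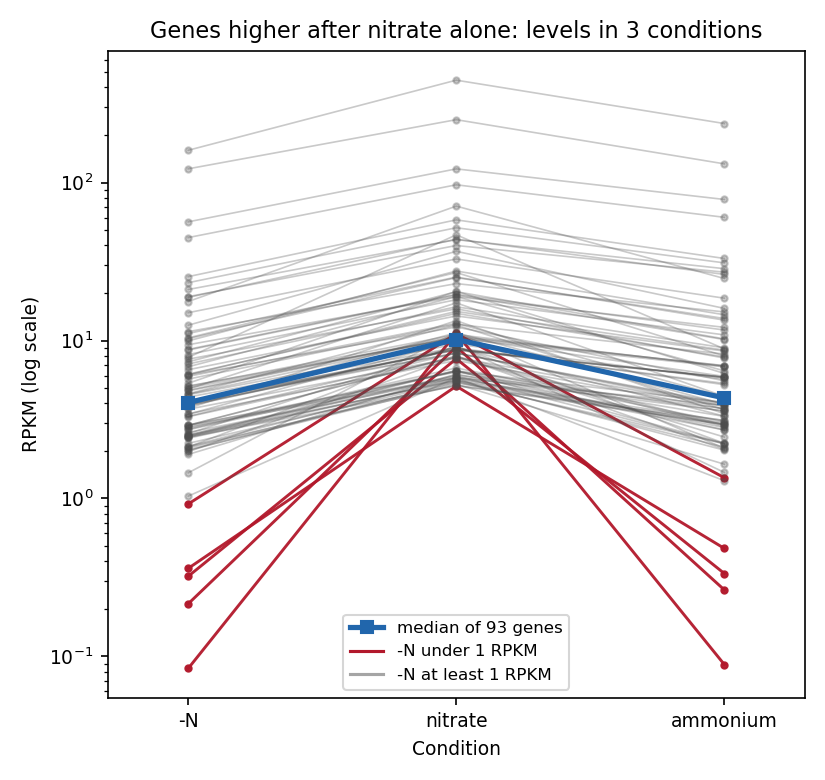
RPKM of each of the 93 members (logarithmic axis) in -N, after nitrate and after ammonium. Each line is 1 gene, red where its -N value is under 1 RPKM (5 genes), and the blue squares are the medians of 4.05, 10.1 and 4.33 RPKM; every line peaks at nitrate, as the rule requires, and the lines span from under 0.1 to over 100 RPKM.

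The lower a gene's highest level, the more often it was a member. Among eligible genes whose highest value lay between 5 and 10 RPKM, 46 of 3407 were members (1.35%). The share was 27 of 4074 (0.663%) between 10 and 20 RPKM, 13 of 4685 (0.277%) between 20 and 50 RPKM, and 7 of 3759 (0.186%) from 50 RPKM upwards. The share of genes with a nitrate ratio above 1, whatever their ammonium ratio, fell in the same order, with 5.14%, 2.41%, 1.56% and 1.09%. Low values rest on fewer reads and scatter more, and how far this enters the members was not tested.

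Most members lay close above the nitrate threshold. Their median nitrate ratio was 1.23, with quartiles of 1.12 and 1.46, against a median of 0.02 for all eligible genes. The ratio was at most 1.5 for 74 of the 93 genes (79.6%). A further 9 lay between 1.5 and 2, 5 between 2 and 3, 2 between 3 and 4, and 3 above 4. A long upper tail of 10 genes with at least a 4-fold difference thus stood above 83 genes with a smaller one.

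At the head of the order was Zm00001d048644, with 11.1 RPKM after nitrate against 0.0839 in -N and 0.0888 after ammonium. Where 3 values are given below without their conditions, they follow this order of nitrate, -N and ammonium. Its nitrate ratio of 7.05 was the highest of all eligible genes, and its ammonium ratio was 0.08. The second, Zm00001d019704, was listed at 9.12 RPKM after nitrate against 0.215 in -N and 0.264 after ammonium (nitrate ratio 5.41, ammonium ratio 0.29). These 2 genes were close to undetected in both conditions without nitrate.

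Zm00001d033347 followed, with 7.66 RPKM after nitrate against 0.321 in -N and 0.335 after ammonium, a 23.8-fold difference from -N (nitrate ratio 4.58). For Zm00001d041067 the values were 5.14, 0.361 and 0.483 RPKM in the same order (3.83), which puts it nearest of all members to the minimum of 5 RPKM. Zm00001d042963 reached 11.1 RPKM after nitrate from 0.922 in -N (3.58) and had 1.35 after ammonium. These 5 leading genes are the same 5 that were under 1 RPKM in -N, and the size of their ratios rests on denominators whose error is unknown. With 1 RPKM added to every value, the nitrate ratio of the first was 3.48.

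Among members with at least 5 RPKM in -N, Zm00001d027524 had the highest nitrate ratio. It was listed at 46.7 RPKM after nitrate against 7.82 in -N and 8.86 after ammonium, so that nitrate was 5.97-fold above -N (nitrate ratio 2.58) and ammonium 1.13-fold. It and Zm00001d035605 were the only genes among both the 10 members with the highest nitrate ratio and the 10 with the highest RPKM after nitrate. Zm00001d035605 had 71.0 RPKM after nitrate against 17.7 in -N and 24.7 after ammonium, a 4.02-fold difference after nitrate (2.01) with an ammonium ratio of 0.48.

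The other genes of the leading 10 were of low level. Zm00001d042553 had 11.3 RPKM after nitrate against 1.45 in -N and 2.08 after ammonium (2.96), and Zm00001d015702 had 5.82, 1.03 and 1.30 RPKM (2.49). Zm00001d016255 differed from them in direction after ammonium, with 9.29 RPKM after nitrate against 2.12 in -N and 1.46 after ammonium. Its ammonium ratio of -0.53 was the lowest of all members, and nitrate exceeded ammonium 6.36-fold in this gene. Across the 93 members the nitrate ratio and the log2 -N level had a Pearson r of -0.64, a description over genes that share the same 3 columns, in which a low -N value raises the ratio by construction.

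**Figure D2:**
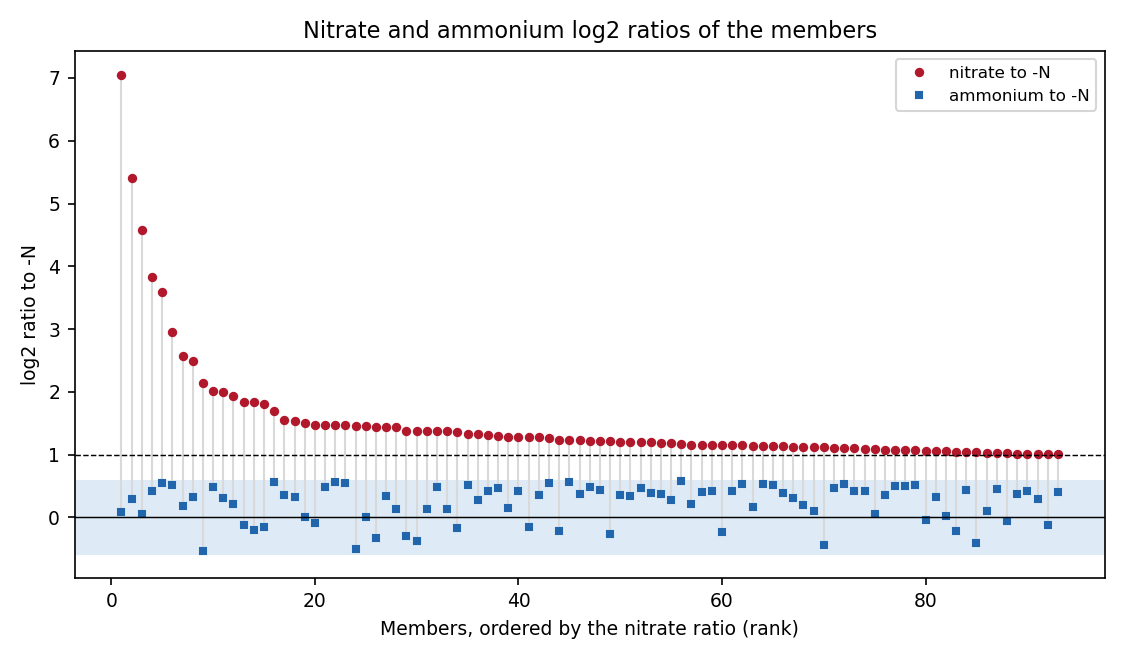
Nitrate ratio (red circles) and ammonium ratio (blue squares) of the 93 members on the log2 scale, ordered by the nitrate ratio; the shaded band is the ammonium limit of 0.58, the dashed line the nitrate threshold of 1. The red curve drops from 7.05 to about 2 over the first 10 genes and then runs flat to 1.00, while the blue points lie mostly in the upper part of the band, with a median of 0.34.

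Of the 10 most abundant members, Zm00001d027524 and Zm00001d035605 had nitrate ratios above 2, and the other 8 lay between 1.03 and 1.47. Zm00001d024633 was the highest of them with 445 RPKM after nitrate against 160.1 in -N and 236 after ammonium, a nitrate ratio of 1.47 beside an ammonium ratio of 0.56 that lies just within the limit. Zm00001d039908 had 250.2 RPKM after nitrate against 122 in -N and 131 after ammonium, with ratios of 1.03 and 0.10. In the first gene ammonium lay clearly between the other conditions, and in the second it was near -N.

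Zm00001d008620 (122 RPKM after nitrate, 56.4 in -N, 78.2 after ammonium) and Zm00001d032691 (96.8, 44.8 and 60.3 RPKM) had nitrate ratios of 1.11 each and ammonium ratios of 0.47 and 0.43. Of similar shape was Zm00001d002500, with 58.1, 25.4 and 33.1 RPKM (1.19 and 0.38). Zm00001d038558 was listed at 51.8, 23.2 and 31.0 RPKM (1.16 and 0.42). In all 4 genes ammonium took an intermediate place between -N and nitrate.

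The same held for Zm00001d020954, with 43.8 RPKM after nitrate against 18.7 in -N and 26.2 after ammonium (ratios of 1.23 and 0.48). Zm00001d029083 completed the 10 most abundant members with 43.5, 21.0 and 28.5 RPKM (1.05 and 0.44). Of these 10 genes, Zm00001d039908 and Zm00001d027524 were the only ones with an ammonium ratio under 0.3.

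Although the rule admits ammonium values on both sides of -N, the members were unevenly spread within it. In 73 of the 93 genes the value after ammonium was above -N, and in 20 it was below. Over all eligible genes 50.7% were above -N after ammonium. The median ammonium ratio of the members was 0.34 against 0.01 for all eligible genes. It exceeded 0.3 in 52 members, 0.4 in 36 and 0.5 in 15, whereas it was below -0.3 in only 7. For most members the order was thus nitrate, then ammonium, then -N, and "nitrate alone" is a matter of the limit on the ammonium ratio. Because both ratios share the -N value and the rule used both, no test was made of this unevenness.

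Only 9 members lay within 0.1 of their -N level after ammonium. Zm00001d036069 was the closest, with 11.2 RPKM after nitrate against 3.94 in -N and 3.95 after ammonium (nitrate ratio 1.51, ammonium ratio 0.00). Zm00001d021272, chosen here after its values were seen, was similar with 7.95, 2.90 and 2.92 RPKM (1.45 and 0.01). In these genes the values without nitrate were alike with and without ammonium.

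The 20 members that were lower after ammonium than in -N had a median nitrate ratio of 1.32 and a median ammonium ratio of -0.21. Their median levels were 9.11 RPKM after nitrate against 3.84 in -N and 3.38 after ammonium. The 73 others had medians of 10.5, 4.12 and 5.84 RPKM, with ratios of 1.21 and 0.39. In -N and after nitrate the medians were thus alike on both sides. Besides Zm00001d016255, the lowest ammonium ratios were those of Zm00001d030670 (7.99 RPKM after nitrate, 2.91 in -N, 2.05 after ammonium, ammonium ratio -0.50) and Zm00001d007157 (12.9, 5.93 and 4.39 RPKM, -0.43).

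The direct ratio of nitrate to ammonium does not contain the -N value, but the limits of the rule force nitrate above ammonium in every member. Its log2 was between 0.56 and 6.97 over the members, with a median of 0.97 and quartiles of 0.74 and 1.48. Of the 93 genes, 45 were more than 2-fold higher after nitrate than after ammonium and 10 were more than 4-fold higher. Over all eligible genes 1.81% passed the 2-fold limit, and nothing is read from this comparison because the rule used both ratios. The other 48 members differed between the 2 nitrogen forms by less than the 2-fold asked of nitrate against -N, and in 3 of them the log2 ratio was not above 0.58. The 20 members below -N after ammonium exceed the 2-fold limit by construction, and the smallest log2 ratio among them was 1.08. The smallest ratio of all belonged to Zm00001d040210 (chosen after its values were seen), with 39.9 RPKM after nitrate against 19.0 in -N and 27.1 after ammonium.

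**Figure D3:**
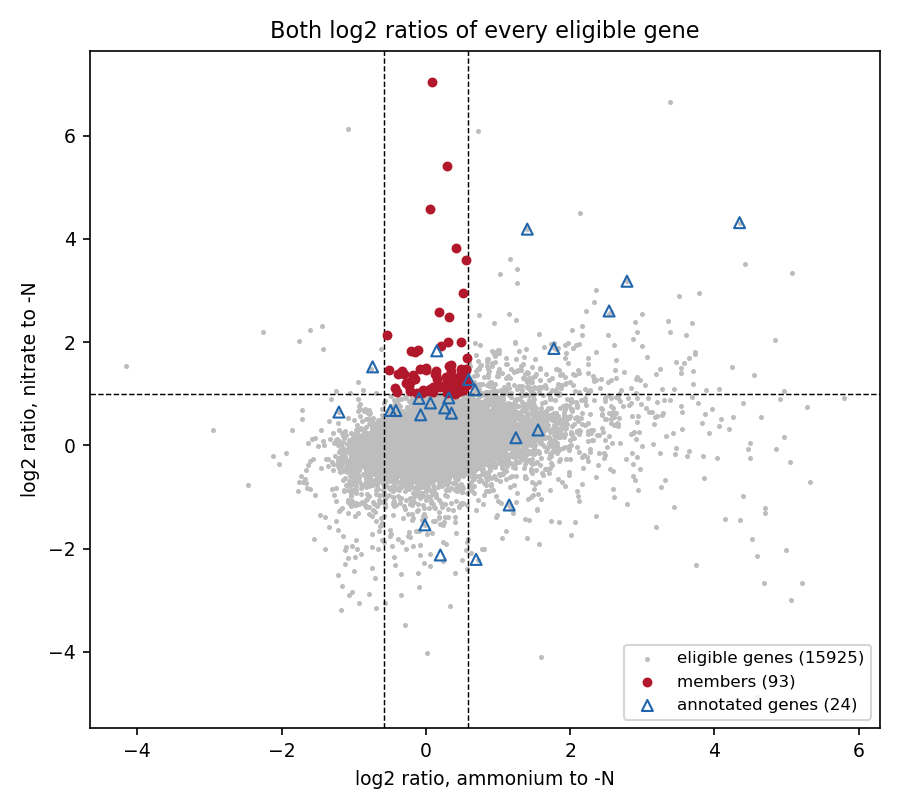
Nitrate ratio (vertical) against ammonium ratio (horizontal), both log2, for the 15925 eligible genes (grey), the 93 members (red) and 24 genes with an annotation in the study (blue triangles). Dashed lines mark 1 on the nitrate axis and 0.58 and -0.58 on the ammonium axis; the members fill the upper middle field, mostly low in it and right of 0, and the 1 triangle well inside that field is the glucose-6-phosphate translocator, whose level is under the minimum of 5 RPKM.

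The thresholds fall within a continuous range of values. The last members on the nitrate side were Zm00001d009081 (10.3 RPKM after nitrate, 5.15 in -N, nitrate ratio 1.00), Zm00001d019645 (12.2 and 6.05 RPKM, 1.01) and Zm00001d044181 (5.87 and 2.92 RPKM, 1.01). The first genes outside were Zm00001d051748 (5.73 and 2.86 RPKM), Zm00001d023888 (6.49 and 3.25 RPKM) and Zm00001d045728 (5.85 and 2.96 RPKM), with nitrate ratios from 0.98 to 1.00. No gap separates these genes.

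At the upper ammonium limit, Zm00001d011594 was just inside with an ammonium ratio of 0.58 (8.83 RPKM after nitrate, 3.92 in -N, 5.84 after ammonium), followed by Zm00001d040032 (0.57) and Zm00001d010446 (0.56). Just outside were Zm00001d011789 (0.59), Zm00001d047775 (0.59) and Zm00001d032663 (0.60). The last of these, with 13.6 RPKM after nitrate against 4.47 in -N and 6.79 after ammonium, had a nitrate ratio of 1.60 and so a larger difference than most members. At the lower limit the nearest genes outside were Zm00001d023811 (-0.62), Zm00001d049660 (-0.69) and Zm00001d018298 (-0.77), farther from the limit than the genes at the upper one.

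The minimum of 5 RPKM set aside more genes than it kept. The ratios alone were met by 466 further genes under 5 RPKM, with a median of 0.556 RPKM after nitrate. The nearest were Zm00001d028303 with 4.88 RPKM after nitrate against 2.27 in -N and 3.31 after ammonium, and Zm00001d025971 with 4.85, 2.32 and 1.67 RPKM. Zm00001d037985 had 4.78 RPKM after nitrate but only 0.0838 in -N and 0.0594 after ammonium. Set beside the members alone, its nitrate ratio of 5.83 would come second, and it was not ranked against the other genes under the minimum. Inside the minimum, Zm00001d030698 (5.16, 2.44 and 3.12 RPKM) and Zm00001d040011 (5.22, 2.12 and 2.94 RPKM) came next after Zm00001d041067.

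Genes listed at 0 in a condition have no ratio and could not be members, whatever their other values. Of the Zm00001d genes, 7 were listed at 0 both in -N and after ammonium and at 9.23 to 16.3 RPKM after nitrate. They were Zm00001d018026 (16.3 RPKM after nitrate), Zm00001d018658 (15.1), Zm00001d039168 (14.9), Zm00001d009507 (13.9), Zm00001d004703 (13.2), Zm00001d033332 (13.1) and Zm00001d046080 (9.23). An eighth, Zm00001d037894, had 13.6 RPKM after nitrate against 0 in -N and 0.0796 after ammonium. In all, 23 Zm00001d genes reached at least 5 RPKM and were listed at 0 in some condition. Of these, 2 were listed only in -N and 4 only after ammonium, and no ranking is read from such small counts. A listed 0 can also be a failed estimate, and in which of the 3 nitrate libraries these genes were read is unknown here. The 11.1 RPKM of Zm00001d048644 after nitrate lay within the range of these genes.

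For orientation, 24 named genes of nitrogen metabolism, the apoplast and sugar transport were looked up, and none was a member. The genes left out by the rule are not among the 24. Those genes are annotated in the same lists of the study and met all thresholds. The absence of members among the 24 was thus fixed by leaving them out. It does not show that annotated genes of these groups lack the pattern. The 24 genes had been singled out earlier on these very samples, and their direction adds no independent evidence. Of the 18 that were eligible, 15 had a nitrate ratio above 0.58, while 7.08% of all eligible genes had one. The criterion missed is given below for part of the 24. The SWEET sugar transporter gene (Zm00001d015905) missed both ratio limits, with a nitrate ratio of 0.65 and an ammonium ratio of -1.20.

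The genes of nitrate reduction looked up were higher after both forms than in -N. The study lists a further nitrate reductase gene among those raised by ammonium, which was not looked up here. Nitrite reductase (Zm00001d018161), which reduces nitrite to ammonium in the plastid, had 16.3 RPKM after nitrate against 0.820 in -N and 16.7 after ammonium. Nitrate reductase (Zm00001d049995), the first enzyme of the pathway, had 1.77, 0.291 and 1.69 RPKM. Ferredoxin VI (Zm00001d038291), an electron carrier, had 37.2, 10.1 and 34.6 RPKM. All 3 differed by at most 0.10 on the log2 scale between nitrate and ammonium, and failed the rule by their ammonium ratio, nitrate reductase also by the minimum of 5 RPKM.

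The root ferredoxin-NADP reductase (Zm00001d034345), which passes electrons from NADPH to ferredoxin in non-green plastids, came close, with 110.2 RPKM after nitrate against 52.3 in -N and 83.7 after ammonium (ratios of 1.08 and 0.68). Hemoglobin 1 (Zm00001d048020), of a family that removes nitric oxide, had 301, 33.1 and 229 RPKM. Hemoglobin 2 (Zm00001d038718) had a larger gap between the 2 forms, with 5.72 RPKM after nitrate against 0.313 in -N and 0.830 after ammonium, and failed the rule with an ammonium ratio of 1.41. The nitrate transporter gene ZmNRT1a (Zm00001d029932) had 27.4, 17.8 and 22.7 RPKM, under the nitrate threshold with 0.62.

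Among the named genes looked up, the glucose-6-phosphate translocator (Zm00001d021653) was closest in shape to the members. This transporter brings substrate of the oxidative pentose phosphate pathway into the plastid. It had 3.55 RPKM after nitrate against 0.996 in -N and 1.11 after ammonium, with ratios of 1.83 and 0.15, and failed by the minimum of 5 RPKM alone. All 8 apoplast genes looked up had a nitrate ratio above 0.58. In 6 of them the ammonium ratio lay within it, a share close to the 73.7% of all eligible genes. The study lists these genes among those raised by nitrate only. Their values after ammonium thus entered that choice, and nothing is read from the share. The 8 do not include the genes left out by the rule. Of the 8, 6 failed by the nitrate threshold of 1, among them the lichenase-2 gene Zm00001d038049, a cell wall glucanase (19.8, 10.4 and 13.01 RPKM, nitrate ratio 0.92), and the auxin-induced beta-glucosidase gene Zm00001d048669 (9.67, 5.14 and 4.82 RPKM, 0.91). Of the dirigent proteins looked up, a family that guides the coupling of phenoxy radicals, Zm00001d005472 had 44.8, 25.3 and 26.5 RPKM (0.82). The other, Zm00001d047775, missed the ammonium limit with 0.59 (19.6, 8.08 and 12.2 RPKM). Of the 5 transporters of ammonium and urea, 3 were eligible, and 2 of these had a nitrate ratio below -0.58, as did 3.91% of all eligible genes. They were an ammonium transporter 2 gene (Zm00001d034782, nitrate ratio -1.54) and ZmAMT1;1a (Zm00001d025831, -1.16).

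The rule was also applied in its mirror forms to the same eligible genes. It gave 112 genes lower after nitrate alone (0.703%), 717 higher after ammonium alone (4.5%) and 145 lower after ammonium alone (0.911%). The members were thus the smallest of the 4 sets. The 112 genes lower after nitrate alone had medians of 4.11 RPKM after nitrate and 11.6 after ammonium, with a median nitrate ratio of -1.39 and a median ammonium ratio of -0.04. Among the 717 genes higher after ammonium alone, the median nitrate ratio was 0.18, on the same side as their ammonium ratio. The 280 genes that passed the nitrate threshold together with an ammonium ratio above 0.58 had levels like those of the members, with medians of 9.14 RPKM after nitrate and 3.45 in -N, but 10.1 RPKM after ammonium. Their median nitrate ratio was 1.36. All these sets share the -N values, and no test of a difference between them was made.

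Among the identifiers of the members, Zm00001d020627 and Zm00001d020628 are consecutive numbers, and Zm00001d036069 and Zm00001d036072 differ by 3. The first had 25.0 RPKM after nitrate against 10.3 in -N and 13.8 after ammonium, and the second 7.76, 3.29 and 2.85 RPKM. Their nitrate ratios were close, 1.28 and 1.24, but their ammonium values lay on opposite sides of -N (0.42 and -0.21). Zm00001d036072 had 12.7, 5.69 and 8.20 RPKM, with an ammonium ratio of 0.53 where that of Zm00001d036069 was 0.00. No other members were within 5 numbers of each other. Coordinates were not used here, and reads of similar neighbouring genes may have been divided between them by the authors' estimation.

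Of the 93 genes, 59 remained members under each of 2 pseudocounts and 3 other scalings, and 6 under all 12 alternatives, which included a minimum of 10 RPKM, a nitrate threshold of 1.5 and an ammonium limit of 0.3. These 6 were Zm00001d048644 and Zm00001d027524, given above, with Zm00001d036069, and 3 genes of intermediate level. Zm00001d022624 had 20.5 RPKM after nitrate against 5.36 in -N and 6.19 after ammonium (ratios of 1.93 and 0.21). Zm00001d051773 was listed at 13.4, 3.72 and 3.44 RPKM (1.85 and -0.11), and Zm00001d020383 at 17.3, 4.93 and 4.43 RPKM (1.81 and -0.15). In each of the 6 genes the values in -N and after ammonium were close to each other and far below nitrate, which the stricter limits require. The alternatives with looser limits cannot remove a member.

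**Figure D4:**
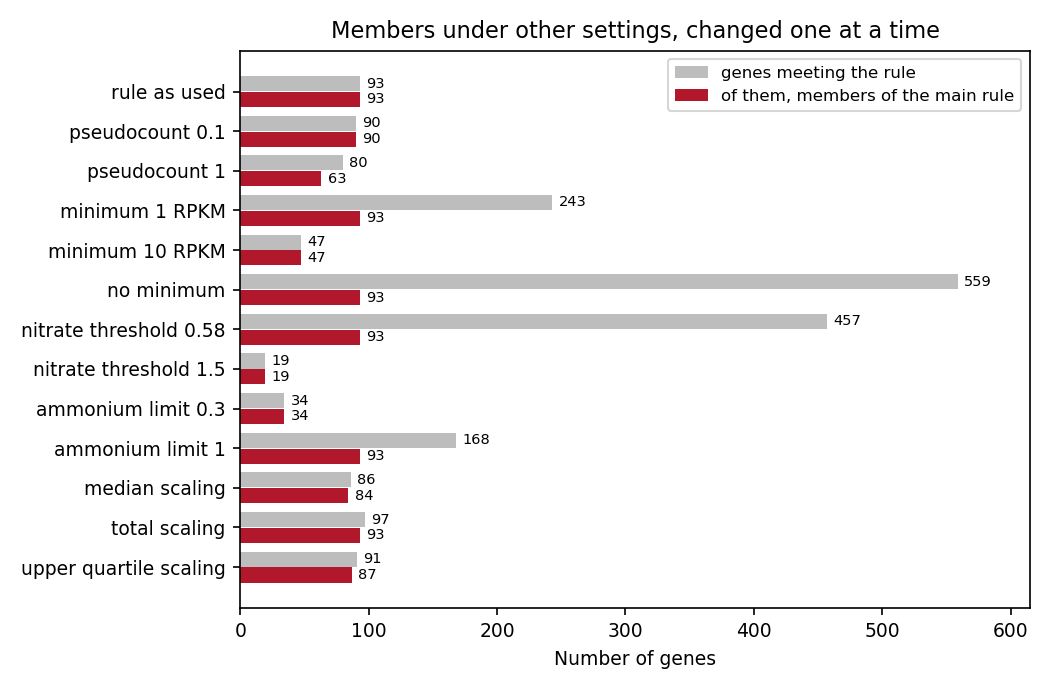
Number of genes that met the rule (grey bars) and number of the 93 members among them (red bars) with the settings as used and with each of 12 other settings, changed one at a time. The bars run from 19 genes with a nitrate threshold of 1.5 to 559 without a minimum, and the 3 scalings leave 84 to 93 of the members in place.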

How the data were processed

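RNA was extracted from pooled root apexes of 9 samples, with 3 replicates per condition, and libraries were made with a TruSeq kit. According to the methods of the study and the submitters' processing notes, reads were trimmed by the authors (Trimmomatic 0.33) and aligned by TopHat2 2.0.13, with Gramene gene models, against B73 AGPv4. The authors removed alignments of low mapping quality and estimated expression with Cuffdiff (Cufflinks 2.2.1), using a correction for reads with several positions and quartile normalization. The deposited RPKM values are one estimate per gene and condition from the authors, scaled for transcript length and library size. The correction divides reads between similar genes, which makes gene families less certain.

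Log2 ratios were computed without a pseudocount. Groups follow the sample titles. The RPKM table has no replicate values, so no test was run on it. The pairwise Cuffdiff tests of the authors over the replicates, with fold changes and adjusted p-values, were not used here. The members, the gene lists and the rule for named genes were chosen with earlier results of these data known. The genes named include the 10 members with the highest nitrate ratio and the 10 with the highest RPKM after nitrate. Also named are the 3 genes nearest each threshold on either side, members with close identifiers and part of the 24 annotated genes. Other genes chosen after their values were seen are marked as such. Those listed at 0, or members under all alternatives, were also chosen after their values were seen. Lists by gene description, promoter motifs and tissue markers were planned but not run, since the identifiers were paired with no description or sequence. The alternatives were pseudocounts of 0.1 and 1, a minimum of 1, of 10 or none, nitrate thresholds of 0.58 and 1.5, ammonium limits of 0.3 and 1, and scaling to a median ratio of 0, to equal totals or to equal upper quartiles. Python 3.11.15 was used with numpy 2.4.6, pandas 2.3.3 and matplotlib 3.10.9.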

Additional observations from a re-analysis of the deposited data

Results flagged for a closer look

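Identifiers other than Zm00001d gene models were outside the rule, and 10 of 215 eligible ENSRNA identifiers of non-coding RNAs met its thresholds (4.65%, against 0.584% of the eligible Zm00001d genes). They were picked out because the report does not use their values, and the difference between these shares was not tested. The largest ratio was that of ENSRNA049479419 (snoZ278), with 30.2 RPKM after nitrate against 5.45 in -N and 5.45 after ammonium, and the most abundant was ENSRNA049476322 (SNORD24), with 540.3, 178 and 231 RPKM. The others were annotated as snoR126, snoZ101, U6, SNOR75, U12, Plant_U3, U1 and snoU36a. Apart from U1, U6 and U12, which are spliceosomal RNAs, these names are those of small nucleolar RNAs. The libraries were made from polyadenylated RNA, and the values of such short transcripts rest on few positions. None of 17 eligible GRMZM identifiers and none of 14 eligible zma-MIR identifiers met the thresholds.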

How the results depend on the processing

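The number of members depended on the thresholds far more than on the scaling. It was 243 with a minimum of 1 RPKM, 559 without a minimum, 457 with a nitrate threshold of 0.58 and 168 with an ammonium limit of 1, and all 93 members remained in each of these. It was 47 with a minimum of 10 RPKM, 19 with a nitrate threshold of 1.5 and 34 with an ammonium limit of 0.3, all of them among the 93, because these settings are stricter by construction. A pseudocount of 0.1 gave 90 genes and one of 1 gave 80, of which 63 were members before. The 3 scalings gave 86 to 97 genes, with 84 to 93 members kept, and shifted the log2 ratios by at most 0.08. With a pseudocount of 1 the median nitrate ratio of the members fell from 1.23 to 1.07. The medians of the ammonium ratio (0.26 to 0.34) and of the nitrate to ammonium ratio (0.87 to 1.04) moved by at most 0.1 under every pseudocount and scaling. No paired analysis was possible because the table has a single value per condition and no replicate values. For the same reason no replicate could be left out, and the table does not give the reads behind a value.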
